A study of Mus musculus with 18 samples.

Results

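The 32 genes described here make, sense, move, store and export cholesterol. They were taken by symbol from the 56413 rows of the gene table, each symbol gave a row, and all 32 passed the filter on low counts, as did 14076 genes in total. Expression was measured by bulk RNA-seq in mouse bone marrow cells that had been grown for 7 days with IL-3 at 0.3 ng/mL, loaded on day 6 with 1 µg/mL of an IgE that recognises the hapten TNP, and enriched for the surface protein CD49b on magnetic beads. Basophils, the cells this culture is meant to give, are rare granulocytes whose surface IgE, once linked by antigen, sets off the release of histamine and of newly made cytokines and lipids. Cells came from WT mice or from mice labelled TTP-KO, for tristetraprolin, an RNA-binding protein encoded by Zfp36 that promotes the decay of mRNAs with AU-rich elements. The 6 groups of 3 libraries were WT and TTP-KO cells given control OVA for 2 h, TNP-OVA for 2 h or TNP-OVA for 4 h, each protein at 10 ng/mL with 50000 cells per sample. The antigen TNP-OVA carries the hapten that the IgE binds, and control OVA does not. Every group therefore shared the IL-3 culture, the IgE and the bead enrichment. There was no control OVA group at 4 h, so in comparisons of 4 h with control the antigen and the longer incubation cannot be told apart. How the TTP-KO allele was made and how many mice gave cells are not given in the sources used here, so p-values measure the spread between these samples, which may be technical.

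Animal cells build cholesterol from acetyl-CoA through mevalonate, isoprenoid diphosphates, squalene and lanosterol. Transcription of these enzymes is driven mainly by SREBP2 (encoded by Srebf2), which lies in the endoplasmic reticulum membrane bound to its escort SCAP. When membrane sterol is low, SCAP carries SREBP2 to the Golgi apparatus, where proteases release its active part, and when sterol is high, INSIG proteins hold the complex back. The liver X receptors LXR alpha and LXR beta (Nr1h3 and Nr1h2) bind oxysterols and raise expression of cholesterol exporters. In mast cells and basophils, cholesterol-rich membrane domains take part in signalling from the high-affinity IgE receptor.

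Libraries held 5516580 to 12733172 estimated counts, and no library stood apart from its group (mean correlation of log2 CPM with the other libraries of its group from 0.97 to 0.98). All 10 basophil markers were present in every library, with a summed level of 23880 to 32260 CPM (counts scaled to 1e+06 per library, the libraries being normalised with the TMM method, a trimmed mean of log ratios). The 7 mast cell markers summed to between 864 and 1475 CPM. Cpa3 was the highest of them (mean 1059 CPM), followed by Tpsb2 (111 CPM), and Mrgprb1 had no count in any library. The level of Zfp36 mRNA does not check the TTP-KO label, since it was not lower in those libraries: TTP-KO minus WT was -0.08 ± 0.05 (log2 ± SE) in control, 0.33 ± 0.05 at 2 h and 0.14 ± 0.05 at 4 h. TTP-KO is therefore used below as the name on the labels. Scaling bears on every comparison of 2 h with control. With TMM the median log2 fold change over all genes tested in WT at 2 h was -0.05, whereas with library totals alone it was -0.37 in WT and -0.36 in TTP-KO cells. At 4 h the library totals gave -0.13 in WT and -0.12 in TTP-KO cells. Of all genes called in WT at 2 h, 50.8% were higher with TMM and 16.6% with library totals (51.7% and 15.9% in TTP-KO cells), and at 4 h 51.6% and 33.6% (52.3% and 31.5% in TTP-KO cells). The share of all counts held by the 32 genes lay between 0.186% and 0.187% in the WT control libraries, between 0.170% and 0.173% in those at 2 h, and was 0.166% in those at 4 h. In TTP-KO libraries it lay between 0.178% and 0.181% in control, between 0.163% and 0.166% at 2 h and between 0.162% and 0.165% at 4 h. Directions below are relative to most genes, as TMM scaling defines them, and called values that turn with library totals are named.

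Upstream sequences of 5 genes are printed because these genes moved together, or apart, after antigen. They are taken from RefSeq promoter windows of build GRCm38.p6, which hold 26 of the 32 genes, and each is the 250 bases before the annotated start, read 5′ to 3′ on the gene's strand. Capitals mark matches, on either strand, to a sterol regulatory element (TCACCCCAC, or its core CACCCCA, which lies inside it), to the E-box CACGTG that SREBPs can also bind, and to the NF-Y box CCAAT, which reads ATTGG on the other strand. Hmgcs1 (chr13:119690101-119690350, plus strand) holds the sterol regulatory element 137 bases before its start. Srebf2 (chr15:82147019-82147268, plus strand) holds the core 161 bases before its start. Hsd17b7 (chr1:169969206-169969455, minus strand) and Cyp51 (chr5:4104698-4104947, minus strand) rose most after antigen. Ebp (chrX:8193513-8193762, minus strand) belongs to the same pathway and fell in WT cells. In TTP-KO cells its change from control was not called at 2 h or 4 h with TMM scaling.
Hmgcs1: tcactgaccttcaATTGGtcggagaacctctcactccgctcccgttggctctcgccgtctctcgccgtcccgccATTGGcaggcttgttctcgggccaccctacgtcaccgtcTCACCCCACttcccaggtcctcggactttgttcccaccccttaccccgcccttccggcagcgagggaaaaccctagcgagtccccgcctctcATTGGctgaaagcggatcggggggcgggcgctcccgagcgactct
Srebf2: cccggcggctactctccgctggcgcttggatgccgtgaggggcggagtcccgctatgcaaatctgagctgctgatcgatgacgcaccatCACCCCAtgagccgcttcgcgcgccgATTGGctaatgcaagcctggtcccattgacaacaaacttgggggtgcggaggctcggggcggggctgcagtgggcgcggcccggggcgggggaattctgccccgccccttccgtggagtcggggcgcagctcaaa
Hsd17b7: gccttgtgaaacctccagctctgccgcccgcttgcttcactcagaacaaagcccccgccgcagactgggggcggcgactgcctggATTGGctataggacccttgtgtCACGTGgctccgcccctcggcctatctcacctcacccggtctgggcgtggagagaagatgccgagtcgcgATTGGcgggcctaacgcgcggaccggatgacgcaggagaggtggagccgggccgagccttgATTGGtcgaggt
Cyp51: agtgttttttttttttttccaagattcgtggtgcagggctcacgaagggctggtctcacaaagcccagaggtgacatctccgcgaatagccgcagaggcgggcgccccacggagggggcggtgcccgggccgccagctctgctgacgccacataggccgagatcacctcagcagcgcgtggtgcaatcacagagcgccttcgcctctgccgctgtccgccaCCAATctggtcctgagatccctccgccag
Ebp: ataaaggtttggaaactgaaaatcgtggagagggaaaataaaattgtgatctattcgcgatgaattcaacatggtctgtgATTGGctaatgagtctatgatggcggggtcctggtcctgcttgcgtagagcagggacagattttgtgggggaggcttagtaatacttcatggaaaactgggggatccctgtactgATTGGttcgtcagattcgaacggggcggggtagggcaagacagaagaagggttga

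Over the whole 300-base windows, 50 bases after the start included, the NF-Y box was found in 21 of 26 member genes (80.8%) and in 41.1% of the 27025 genes with a window. The E-box was found in 6 (23.1%, against 8.09% of all genes): Abca1, Dhcr7, Hsd17b7, Insig1, Sc5d and Scap. The core CACCCCA was found in 4 (15.4%, against 8.66%): Acat2, Hmgcs1, Soat1 and Srebf2. The full sterol regulatory element was found in Hmgcs1 alone (3.85%, against 0.614%). An LXR element written as 2 direct copies of AGGTCA with 4 bases between them was found in no member (0.0148% of all genes). Among genes with a window, the NF-Y box was present in 9 of the 10 that rose in WT at 2 h, in 3 of the 4 that fell and in 9 of the 12 with no call. These matches describe letters in the windows only.

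Antigen raised some enzymes of the cholesterol pathway within 2 h, led by Hsd17b7 (2.65-fold), Cyp51 (2.22-fold) and Msmo1 (1.75-fold). In WT cells 13 of the 32 genes rose (background: 17.8% of all genes tested were called higher) and 5 fell (17.3% were called lower), with a median log2 fold change of 0.02 against -0.05 over all genes. Library totals alone turned the split to 6 higher and 16 lower. The latter included enzymes with no call under TMM: Mvk (-0.76), Tm7sf2 (-0.635), Nsdhl (-0.43) and Dhcr7 (-0.76). The 6 that rose under every scaling tried were Hsd17b7, Cyp51, Msmo1, Idi1, Hmgcs1 and Sqle, all enzymes of the pathway, and the 5 that fell under every scaling were Ebp, Mvd, Nr1h3, Abcg1 and Npc2. By role, 3 of 7 mevalonate and isoprenoid enzymes rose and 1 fell, 6 of 11 squalene and sterol enzymes rose and 1 fell, 2 of 5 SREBP control genes rose, 2 of 5 LXR and export genes rose and 2 fell, and 1 of 4 transport and storage genes fell. The squalene and sterol enzymes summed to between 307 and 325 CPM in the WT control libraries and between 457 and 480 CPM at 2 h. In the same comparison 0 of 11 neutrophil, 0 of 6 B cell and 0 of 4 tested dendritic cell markers were called (edgeR; 0, 0 and 2 at an unadjusted p under 0.05), while 2 of 11 macrophage markers were higher and 2 of 5 tested mast cell markers lower. Of the 10 basophil markers 4 were higher and 3 lower. Their summed level was 23880 to 25160 CPM in WT control and 30710 to 31870 CPM at 2 h. Transport and storage genes summed to between 587 and 645 CPM in control and between 540 and 565 CPM at 2 h.

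**Figure D1:**
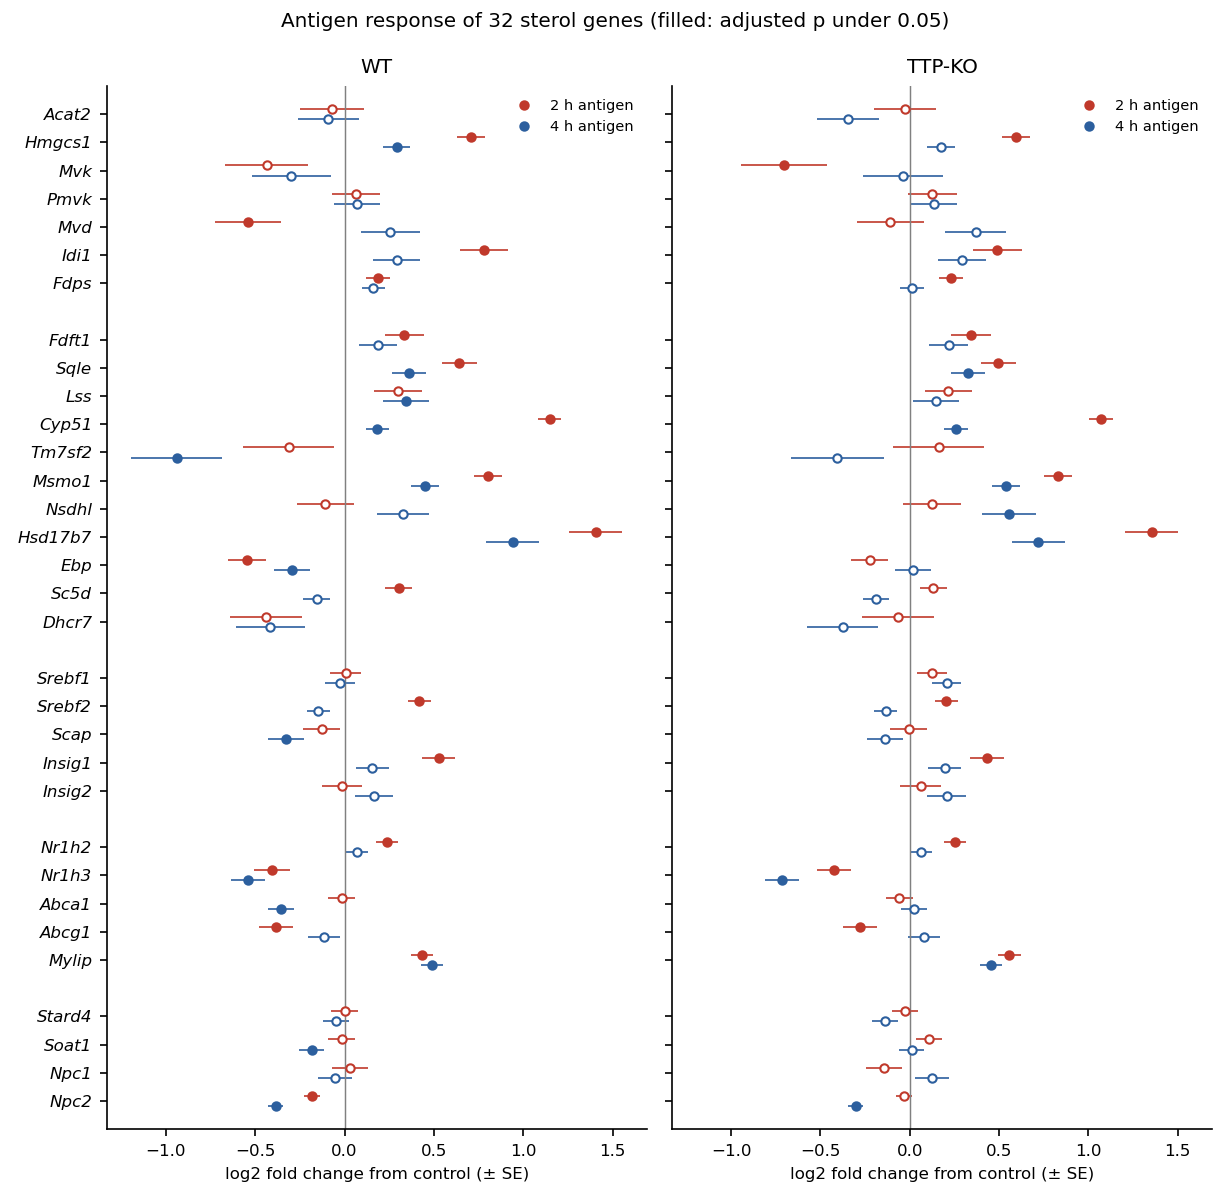
Log2 fold change from control (horizontal axis, ± SE) of the 32 genes after 2 h (red) and 4 h (blue) of antigen in WT (left) and TTP-KO cells (right), by role from mevalonate enzymes (top) to transport (bottom); filled points passed an adjusted p of 0.05. Hsd17b7 and Cyp51 lie farthest to the right at 2 h in both genotypes, and at 4 h Cyp51 lies near the controls.

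Within the mevalonate stretch, Hmgcs1, which condenses acetyl-CoA units into HMG-CoA, had 59.0, 68.9 and 61.9 CPM in the WT control libraries and 104, 93.0 and 112 CPM at 2 h. The groups did not overlap, and the rise was 0.71 ± 0.08 (log2 fold change ± SE; adjusted p = 1.63e-08, edgeR quasi-likelihood test with Benjamini-Hochberg adjustment over all genes tested, used throughout). Idi1, which isomerises the isoprenoid building block, had 24.2, 32.6 and 29.6 CPM in control and 46.4, 49.8 and 51.2 CPM at 2 h. Every 2 h library lay above every control, by 0.78 ± 0.13 (adjusted p = 6.31e-05). Mvd, the decarboxylase that acts between them, went the other way, with 10.8, 11.1 and 9.12 CPM in control and 6.93, 7.60 and 6.61 CPM at 2 h. Its fall of 0.54 had an SE of 0.19 (log2 fold change -0.54, adjusted p = 0.0228), and by 4 h Mvd was back at 14.1, 10.8 and 11.9 CPM. The call for Mvd at 2 h was lost with DESeq2 and without WT control replicate 1 or 2 or WT 2 h replicate 1 or 3, where the log2 fold change lay between -0.52 and -0.49.

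Fdps, which makes farnesyl diphosphate, rose by 0.18 ± 0.07 (adjusted p = 0.0327), a value that library totals turned to -0.14. The call was lost with no filter and without WT control replicate 2 or 3 or WT 2 h replicate 1 or 3 (0.15 to 0.20). Mvk and Pmvk, the kinases of mevalonate and phosphomevalonate, and Acat2, a thiolase that supplies acetoacetyl-CoA, did not pass the test in WT at 2 h with TMM. Their log2 fold changes were -0.44, 0.06 (-0.26 with library totals) and -0.07. Mvk was called lower with library totals (-0.76), and with TMM without WT control replicate 2 (-0.615). The errors of Mvk, Mvd, Acat2, Tm7sf2 and Dhcr7 were wide (SE from 0.18 to 0.26 at 2 h). The value of Fdps is uncertain because its gene model shares exon bases with another model on the same strand.

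Of the squalene and sterol enzymes, Hsd17b7, which reduces a keto group as methyl groups are taken off the sterol ring, gave the largest rise among the members. It had 8.21, 8.97 and 6.50 CPM in WT control, 19.6, 18.4 and 23.7 CPM at 2 h, and 13.8, 14.6 and 16.5 CPM at 4 h. Every 2 h library was above every 4 h library, and every 4 h library above every control. The 2 h rise was 2.65-fold (log2 fold change 1.41 ± 0.15, adjusted p = 8.4e-09), and at 4 h the value was 0.94 ± 0.15 (adjusted p = 7.31e-06).

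Cyp51, the demethylase that acts on lanosterol, rose and returned. Its WT control libraries had 66.1, 60.5 and 68.1 CPM, those at 2 h 137, 144 and 152 CPM, and those at 4 h 73.1, 76.7 and 71.8 CPM. The 2 h rise was 2.22-fold (1.15 ± 0.07, adjusted p = 1.05e-14), and the value at 4 h was 0.18 ± 0.07 (adjusted p = 0.0265). From 2 h to 4 h Cyp51 fell by 0.97 on the log2 scale (adjusted p = 7.25e-13). The small 4 h call was lost with library totals, with only the groups compared, and without WT control replicate 2, TTP-KO 2 h replicate 2 or WT 4 h replicate 2 (0.14 to 0.17). Cyp51 shares 166 exon bases with Akap9 on the opposite strand, and Akap9 was lower in WT at 2 h (-0.35 ± 0.10).

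Msmo1, an oxidase in the removal of the sterol's methyl groups, had 48.1, 59.1 and 50.7 CPM in WT control. It had 93.1, 92.4 and 89.0 CPM at 2 h, and 68.0, 70.3 and 76.7 CPM at 4 h. The 3 groups did not overlap. Its log2 fold changes were 0.80 ± 0.08 at 2 h (adjusted p = 1.91e-09), and after 4 h 0.45 ± 0.08 (adjusted p = 2.88e-05). Sqle, squalene epoxidase, a rate-limiting step after squalene, had 31.2, 30.1 and 28.4 CPM in control, 43.1, 47.8 and 48.7 CPM at 2 h, and 40.3, 36.6 and 38.1 CPM at 4 h. Here too the groups were separate, with 0.64 ± 0.10 at 2 h (adjusted p = 3.77e-06), and after 4 h 0.36 ± 0.09 (adjusted p = 0.0031).

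Ebp, the isomerase that shifts the ring's double bond, fell in WT cells while Hsd17b7 and Msmo1 rose. Its WT levels were 43.0, 41.0 and 38.7 CPM in control, 27.4, 29.7 and 26.7 CPM at 2 h, and 33.0, 35.1 and 31.9 CPM at 4 h. All 2 h libraries lay below all 4 h libraries, and those below the controls. Log2 fold changes were -0.55 ± 0.11 at 2 h (adjusted p = 0.000139), and after 4 h -0.29 ± 0.10 (adjusted p = 0.0217). The 4 h call was lost without WT control replicate 1 or 2 or WT 4 h replicate 1 or 3 (-0.29 to -0.25).

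Tm7sf2, a sterol reductase, had 4.39, 6.81 and 7.28 CPM in WT control, 5.78, 4.01 and 5.12 CPM at 2 h, and 3.27, 2.72 and 3.66 CPM at 4 h. Only the 4 h libraries were all below the controls (-0.94 ± 0.25, adjusted p = 0.00407). Tm7sf2 shares 532 exon bases with Vps51 on the same strand, and Vps51 had 0.07 ± 0.10 at 4 h. Lss, which closes the epoxide of squalene into lanosterol, was higher at 4 h (0.34 ± 0.13, adjusted p = 0.0336). This call was lost with library totals, with DESeq2 and without any 1 of the WT control libraries or WT 4 h replicate 2 or 3 (0.26 to 0.36). Sc5d, a sterol desaturase, rose at 2 h (0.30 ± 0.07, adjusted p = 0.00199), although library totals gave -0.02. Fdft1, squalene synthase, had 0.34 ± 0.11 at 2 h (adjusted p = 0.0173) and overlaps the abundant Ctsb by 774 exon bases on the other strand, with Ctsb at -0.05 ± 0.04. Its call was lost with library totals and without WT control replicate 1 or WT 2 h replicate 2 or 3 (0.24 to 0.33). With no strand setting in the sources used here, reads of Fdft1 and Ctsb cannot be told apart where they overlap. Nsdhl and Dhcr7, a dehydrogenase of methyl removal and a reductase of the last steps, had -0.11 ± 0.16 and -0.44 ± 0.20 at 2 h. With TMM over all libraries neither was called against control in WT. With library totals both were called lower at 2 h (-0.43 and -0.76), and Dhcr7 also at 4 h (-0.54). With TMM, Dhcr7 was called lower at 4 h without WT 4 h replicate 1 (-0.56). Nsdhl was called higher at 4 h without WT control replicate 2 (0.43).

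**Figure D2:**
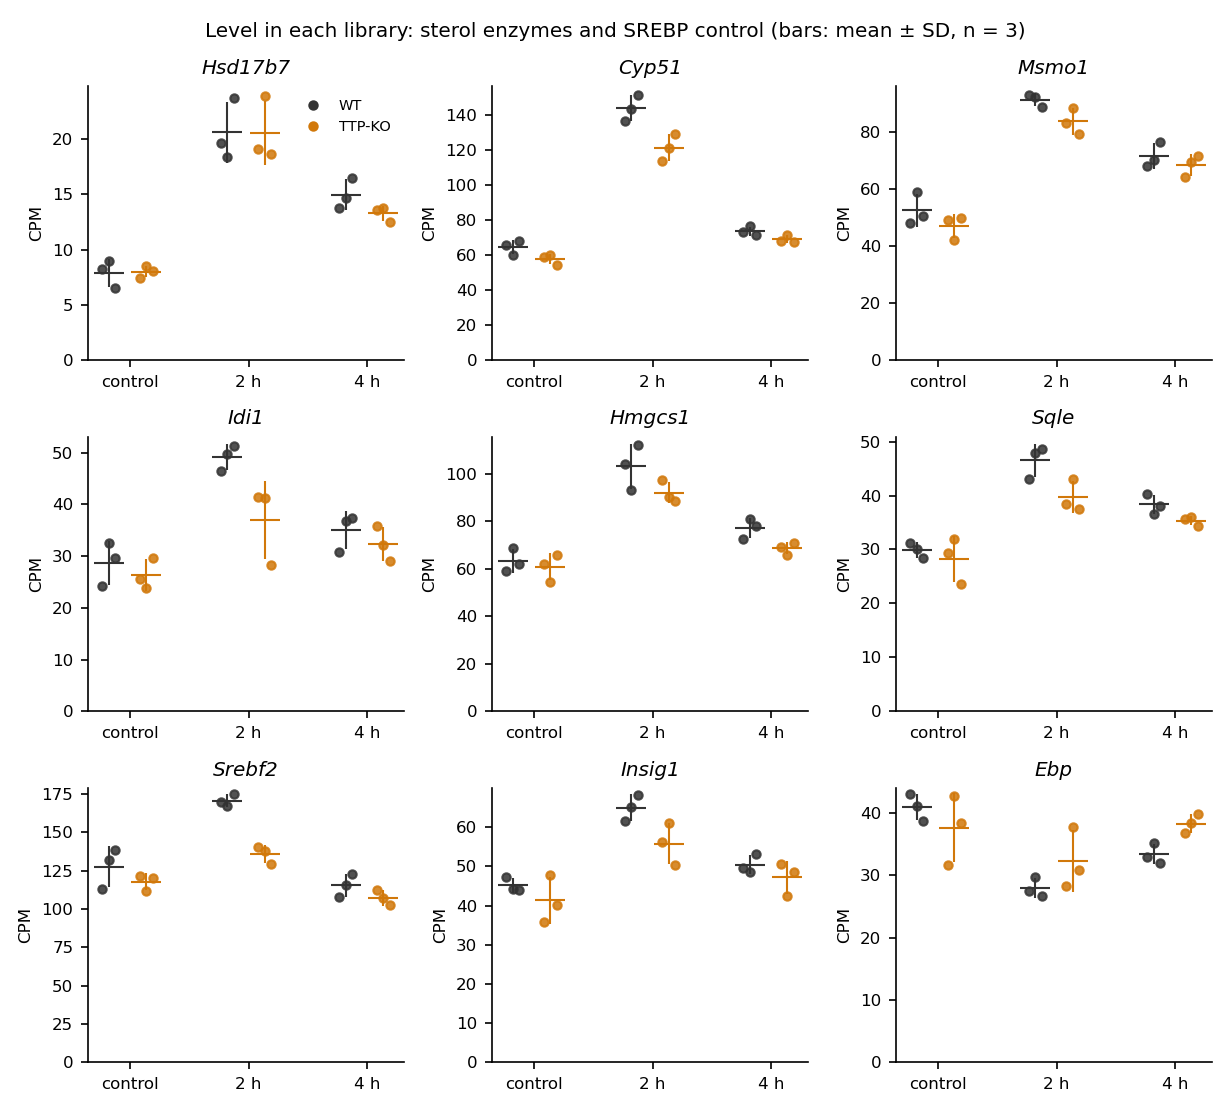
Level in CPM (vertical axes, from 0) of 9 genes in each library under control, 2 h and 4 h of antigen, WT in black and TTP-KO in orange; points are libraries and bars the mean ± SD (n = 3). In Cyp51 the WT libraries lie between 60.5 and 68.1 CPM in control and between 137 and 152 CPM at 2 h. At 4 h they lie between 71.8 and 76.7 CPM. Ebp is lowest at 2 h in WT, and its TTP-KO libraries at 2 h overlap their controls.

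In the control circuit, the sterol sensor's transcription factor and its brake both rose at 2 h with TMM scaling (not called with library totals). The escort and the other isoforms did not pass the test at 2 h with TMM. With library totals they were called lower in WT at 2 h: Scap -0.45, Srebf1 -0.32 and Insig2 -0.34. Srebf2 had 113, 132 and 138 CPM in WT control, 169, 167 and 175 CPM at 2 h, and 108, 115 and 123 CPM at 4 h. All 2 h libraries were above the rest, while control and 4 h overlapped. The rise was 0.42 ± 0.07 at 2 h (adjusted p = 6.03e-06), and the 4 h value was -0.15 ± 0.07 (adjusted p = 0.0765). Insig1, the INSIG that is itself an SREBP target, had 47.4, 44.2 and 44.0 CPM in control, 61.5, 65.3 and 68.2 CPM at 2 h, and 49.6, 48.5 and 53.1 CPM at 4 h. Its 2 h rise was 0.53 ± 0.09 (adjusted p = 3.88e-05), and the 4 h value was 0.15 ± 0.09 (adjusted p = 0.193). With library totals neither Srebf2 (0.09) nor Insig1 (0.20) passed the test at 2 h, and relative to the median of all genes under that scaling they stood at 0.47 and 0.57.

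Scap had 25.0, 21.6 and 22.7 CPM in WT control, 22.4, 21.8 and 19.4 CPM at 2 h, and 18.02, 19.2 and 18 CPM at 4 h. The 4 h libraries were below every control (-0.33 ± 0.10, adjusted p = 0.0104), a call lost without WT control replicate 1 (-0.27, adjusted p = 0.0705). Srebf1, which encodes the SREBP1 isoforms that act more on fatty acid genes, had 33.9, 36.5 and 39.3 CPM in control, 34.7, 38.7 and 36.8 CPM at 2 h, and 36.6, 35.8 and 35.6 CPM at 4 h. These overlapped throughout (0.01 ± 0.09 at 2 h with adjusted p = 0.972, then -0.03 ± 0.08 with adjusted p = 0.843). Insig2, the INSIG that is not a main SREBP target, had 22.7, 21.4 and 21.8 CPM in control, 24.1, 22.0 and 19.6 CPM at 2 h, and 25.4, 26.0 and 22.6 CPM at 4 h. Its values were -0.01 ± 0.11 (adjusted p = 0.949) and 0.17 ± 0.11 (adjusted p = 0.234).

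Of the LXR receptors, Nr1h3 fell in WT cells at both times, and Nr1h2 rose at 2 h with TMM but not with library totals. Nr1h3, LXR alpha, had 28.8, 27.9 and 26.5 CPM in control, 21.5, 21.6 and 19.7 CPM at 2 h, and 19.5, 19.0 and 18.6 CPM at 4 h. Its controls were above all stimulated libraries, with -0.41 ± 0.10 at 2 h (adjusted p = 0.00176), and after 4 h -0.54 ± 0.10 (adjusted p = 4.04e-05). Nr1h2, LXR beta, was higher at 2 h (0.24 ± 0.06, adjusted p = 0.00363), but library totals turned it to -0.09. Mylip, an LXR target that encodes a ligase marking lipoprotein receptors for degradation, had 82.3, 83.9 and 88.6 CPM in control, 117, 114 and 113 CPM at 2 h, and 117, 124 and 116 CPM at 4 h. All stimulated libraries exceeded the controls, by 0.43 ± 0.06 (adjusted p = 1.36e-06) and 0.49 ± 0.06 (adjusted p = 1.22e-07), and with library totals the 2 h value was 0.11 and not called.

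With TMM the exporters were called lower at different times, whereas with library totals both were called lower at both times. Abcg1, which passes cholesterol to high-density lipoprotein, had 33.1, 39.4 and 39.1 CPM in WT control, 27.9, 26.0 and 31.3 CPM at 2 h, and 35.0, 33.9 and 33.8 CPM at 4 h. Only the 2 h libraries were below all controls (-0.39 ± 0.10, adjusted p = 0.0018). Abca1, which loads cholesterol onto apolipoproteins, had 60.0, 71.6 and 69.1 CPM in control, 63.2, 70.8 and 64.2 CPM at 2 h, and 48.9, 53.2 and 54.6 CPM at 4 h. Its 4 h libraries alone were below the controls (-0.35 ± 0.07, adjusted p = 0.00029). With library totals Abca1 had -0.34 at 2 h and -0.48 at 4 h, its change from 2 h to 4 h was not called (-0.14, adjusted p = 0.127), and Abcg1 had -0.71 and -0.24. Npc2, which hands cholesterol out of lysosomes, had 497, 455 and 445 CPM in control, 423, 411 and 397 CPM at 2 h, and 357, 346 and 367 CPM at 4 h. With TMM each step was lower without overlap, with -0.18 ± 0.04 at 2 h (adjusted p = 0.00134), and after 4 h -0.39 ± 0.04 (adjusted p = 2.91e-08). With library totals Npc2 had -0.51 at both times, and its change from 2 h to 4 h was not called (-0.003, adjusted p = 0.963). Soat1, which esterifies cholesterol for storage, was lower at 4 h (-0.18 ± 0.07, adjusted p = 0.0423), a call lost with no filter, DESeq2, only the groups compared and the replicate block (adjusted p = 0.0516). It was also lost without WT control replicate 1 or 2, any TTP-KO control library, WT 4 h replicate 1 or 3 or TTP-KO 4 h replicate 1 or 3 (-0.20 to -0.11). Stard4, a cytosolic sterol carrier, and Npc1, the lysosomal partner of Npc2, did not pass the test at 2 h or 4 h in WT with TMM (-0.05 to 0.03). With library totals both were called lower at 2 h (-0.33 and -0.295). Npc1 shares 511 exon bases with Rmc1 on the other strand.

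At 4 h fewer members were called in WT than at 2 h, evenly split and near the shares over all genes. With TMM, Hmgcs1, Sqle, Cyp51, Msmo1, Hsd17b7 and Ebp, all called at 4 h, had changed less than at 2 h. The others called at 4 h (Lss, Tm7sf2, Scap, Nr1h3, Abca1, Mylip, Soat1 and Npc2) had changed more. Of these others, only Abca1 and Npc2 were called directly between 2 h and 4 h, and neither was with library totals. Ebp was not called over that interval. Against control 7 of 32 genes were higher (19.6% of all genes were called higher) and 7 lower (18.4% lower), with a median of 0.02 against -0.01 over all genes, and with library totals 4 were higher and 11 lower. Markers of other cells moved too: against control 7 of 11 neutrophil markers were lower (median -0.43), and of the macrophage markers 3 were higher and 2 lower. Of 5 tested mast cell markers 2 were lower, and of the 10 basophil markers 4 were higher and 6 lower. Their part in the 4 h values was not tested. Hmgcs1 stood at 72.4, 81.0 and 78.0 CPM (0.29 ± 0.08, adjusted p = 0.00332), a call lost with library totals. Idi1, at 30.8, 36.9 and 37.3 CPM, overlapped the controls (0.29 ± 0.13, adjusted p = 0.0899). Directly between 2 h and 4 h, libraries that both of those comparisons also use, 12 genes fell (15.9% lower over all genes) and 3 rose (15.2% higher). The median was -0.14 against 0.02, and library totals gave 4 lower and 7 higher. Over the same interval 8 of 11 neutrophil markers were lower (median -0.53) and 7 of 10 basophil markers. Among the called genes Cyp51, Srebf2, Idi1, Hsd17b7, Sc5d and Hmgcs1 had the largest falls, from -0.97 to -0.42, and Tm7sf2, which was not called, had -0.63 ± 0.26. With library totals the falls of Idi1 (-0.29, adjusted p = 0.0574) and Hsd17b7 (-0.265, adjusted p = 0.114) were not called. The call of Hsd17b7 was also lost without WT 2 h replicate 3. The 3 that rose were Mvd (0.80 ± 0.18, adjusted p = 0.000894), Nsdhl (0.43 ± 0.15, adjusted p = 0.0284) and Abcg1 (0.27 ± 0.09, adjusted p = 0.0284). The calls of Nsdhl and Abcg1 were lost with DESeq2 and without most single libraries of the groups compared: for Nsdhl all except WT 4 h replicate 1, and for Abcg1 WT 2 h replicate 1 or 2, WT 4 h replicate 1 or 2 and TTP-KO 2 h replicate 2 or 3 (lowest values 0.36 and 0.20).

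In TTP-KO cells, read against their own control libraries, antigen also raised some enzymes of the pathway. At 2 h 12 of 32 genes rose (17.8% of all genes higher) and 3 fell (16.6% lower), with a median of 0.13 against -0.03, and with library totals 5 rose and 14 fell. Of the markers of other cells, 3 of 4 tested dendritic cell, 3 of 11 macrophage and 2 of 5 tested mast cell markers were higher at 2 h. Of the 10 basophil markers 4 were higher and 3 lower, with a summed level of 24660 to 26120 CPM in control and 31640 to 32260 CPM at 2 h. The part of these markers in the values was not tested. All 12 that rose were among the 13 that rose in WT. The gene of that list without a call was Sc5d, at 0.13 ± 0.08 (adjusted p = 0.193). Hsd17b7 had 7.45, 8.52 and 8.11 CPM in TTP-KO control and 19.1, 23.9 and 18.7 CPM at 2 h (1.35 ± 0.15, adjusted p = 1.38e-08). Cyp51 had 58.8, 60.4 and 54.5 CPM and then 114, 121 and 129 CPM (1.07 ± 0.07, adjusted p = 7.35e-14). Both rises were free of overlap. Msmo1 (0.83 ± 0.08), Hmgcs1 (0.60 ± 0.08), Mylip (0.56 ± 0.06), Sqle (0.50 ± 0.10), Idi1 (0.49 ± 0.14) and Insig1 (0.43 ± 0.09) followed. Idi1 overlapped its controls, with 28.3 CPM in TTP-KO 2 h replicate 3, and its call was lost without TTP-KO control replicate 2 or TTP-KO 2 h replicate 1 or 2 (lowest value 0.40). With library totals Idi1, Sqle and Insig1 were not called. Srebf2 had 122, 112 and 120 CPM in TTP-KO control and 140, 138 and 129 CPM at 2 h, a separate but small rise (0.20 ± 0.07, adjusted p = 0.0151). Library totals turned the value to -0.13, and the call was lost without TTP-KO control replicate 2 or TTP-KO 2 h replicate 1 or 2 (0.16 to 0.19). The genes that fell were Nr1h3 (-0.42 ± 0.10, adjusted p = 0.000818) and Abcg1 (-0.28 ± 0.10, adjusted p = 0.0234), as in WT, and Mvk (-0.70 ± 0.24, adjusted p = 0.0236). Ebp, Mvd and Npc2, which fell in WT at 2 h, were not called in TTP-KO cells with TMM. With library totals they were called lower (-0.56, -0.45 and -0.37). The calls of Mvk and Abcg1 were lost with DESeq2 and without some single libraries. For Mvk these were TTP-KO control replicate 2 and TTP-KO 2 h replicates 1 and 3 (-0.87 to -0.54 over all libraries left out), and for Abcg1 TTP-KO control replicate 2 and TTP-KO 2 h replicate 2 (-0.31 to -0.25).

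At 4 h in TTP-KO cells 6 genes were higher (18.3% of all genes higher) and 2 lower (16.7% lower), with a median of 0.10 against 0.01, and library totals gave 4 higher and 8 lower. At the same time 7 of 11 neutrophil markers were lower (median -0.44), 4 of 11 macrophage markers higher, and 4 of 10 basophil markers higher and 6 lower. The 6 genes were Hsd17b7 (0.72 ± 0.15), Nsdhl (0.56 ± 0.15), Msmo1 (0.54 ± 0.08), Mylip (0.46 ± 0.06), Sqle (0.33 ± 0.10) and Cyp51 (0.26 ± 0.07), and the 2 were Nr1h3 (-0.72 ± 0.10) and Npc2 (-0.30 ± 0.04). Of these, 5 higher and both lower genes were also called in WT at 4 h. Library totals lost the calls of Sqle and Cyp51, and that of Sqle was also lost without TTP-KO control replicate 3 (0.20). From 2 h to 4 h 10 genes fell (16.2% lower over all genes) and 5 rose (14.6% higher), with a median of -0.15 against 0.03, and library totals gave 3 lower and 9 higher. Of the markers, 7 of 11 neutrophil and 9 of 10 basophil genes were lower over that interval. Cyp51 (-0.81 ± 0.06), Hsd17b7 (-0.63 ± 0.14) and Hmgcs1 (-0.42 ± 0.08) fell most among the called genes, and Tm7sf2, not called, had -0.57 ± 0.26. The 5 that rose were Mvk, Mvd, Nsdhl, Abcg1 and Npc1, from 0.27 to 0.67, of which only Abcg1 (0.36 ± 0.09) was kept with DESeq2 and without each library in turn. The call of Mvk was lost without TTP-KO 2 h replicate 1 or 3 or TTP-KO 4 h replicate 1 or 3, and that of Nsdhl without TTP-KO 2 h replicate 1 or 2 or TTP-KO 4 h replicate 1 or 2. Mvd was lost without WT 2 h replicate 1 or 3, WT 4 h replicate 2 or 3, TTP-KO 2 h replicate 2 or 3 or TTP-KO 4 h replicate 1 or 3. Npc1 was lost without WT 2 h replicate 3, WT 4 h replicate 2, TTP-KO 2 h replicate 1 or 2 or TTP-KO 4 h replicate 2 or 3. The lowest values of Mvd and Npc1 were 0.35 and 0.22.

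**Figure D3:**
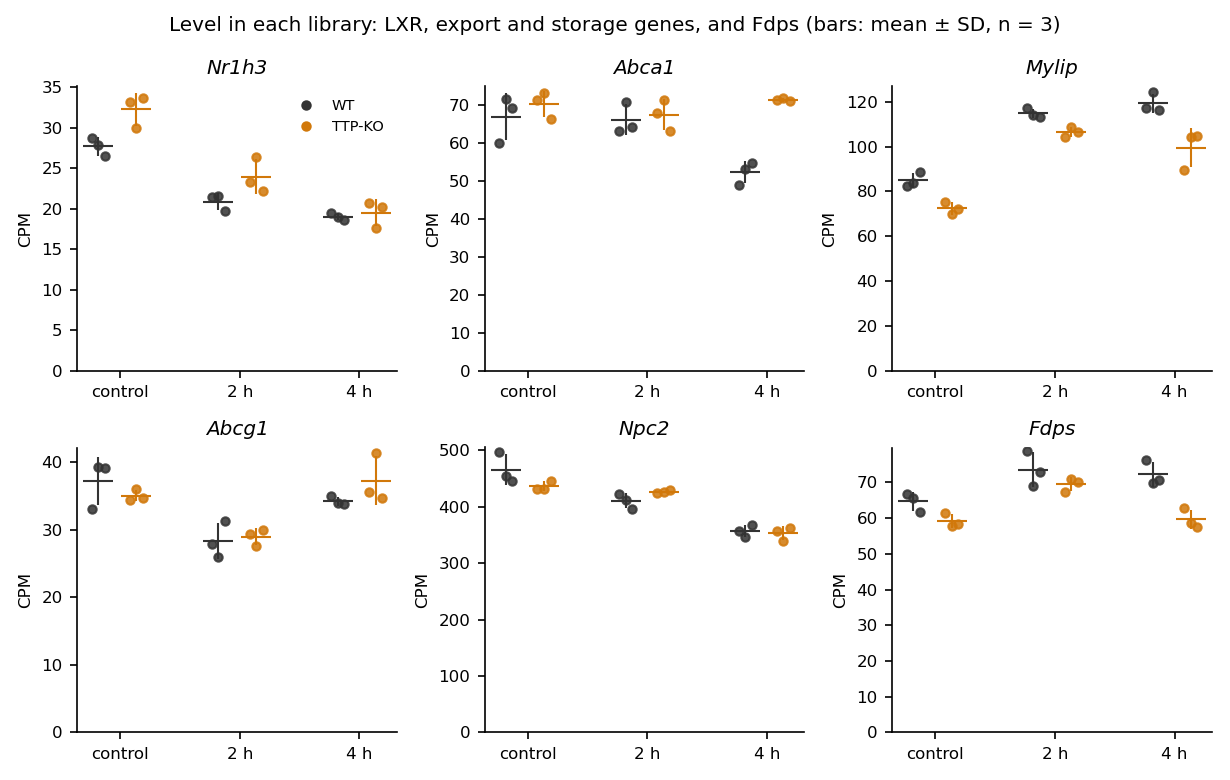
Level in CPM (vertical axes, from 0) of the LXR receptor Nr1h3, 4 export and storage genes and Fdps in each library under control, 2 h and 4 h of antigen, WT in black and TTP-KO in orange; points are libraries and bars the mean ± SD (n = 3). At 4 h Abca1 lies between 48.9 and 54.6 CPM in WT and between 70.9 and 71.9 CPM in TTP-KO cells, while Npc2 is lower than control in both.

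Few of these genes were called between the genotypes. In control cells none of the 32 passed the test between TTP-KO and WT (edgeR; 1.65% of all genes did), 4 had an unadjusted p under 0.05, and DESeq2 called 1, Mylip. Values below 0 were found for 24 of 32 genes in control, with a median of -0.09 against 0.00 over all genes, of which 50.2% were below 0. Of the enzymes, 6 of 7 in the mevalonate group and 8 of 11 in the sterol group were below 0. At 2 h 2 genes were called (2.79% of all genes) and at 4 h 3 genes (5.22%), counts too small to set the list apart. The median was -0.06 at 2 h with 20 of 32 below 0, and -0.09 at 4 h with 22 of 32 below 0 (49.1% and 48.5% of all genes).

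Srebf2 was lower in TTP-KO cells at 2 h, at 140, 138 and 129 CPM against 169, 167 and 175 CPM in WT. No TTP-KO library reached the lowest WT library, a 1.26-fold difference (-0.33 ± 0.07, adjusted p = 0.00323, and at most 0.0253 under any alternative). In control TTP-KO cells had 122, 112 and 120 CPM against 113, 132 and 138 CPM in WT, and at 4 h 112, 107 and 102 CPM against 108, 115 and 123 CPM. Those pairs of groups overlapped (-0.12 ± 0.07, adjusted p = 0.492, and -0.10 ± 0.07, adjusted p = 0.441). The difference between the genotypes in the 2 h response of Srebf2 did not pass the test (-0.21 ± 0.09, adjusted p = 0.675). Cyp51 was lower at 2 h too, at 114, 121 and 129 CPM against 137, 144 and 152 CPM (-0.25 ± 0.06, adjusted p = 0.0242). Its call was lost with library totals and without WT 2 h replicate 2 or 3 or TTP-KO 2 h replicate 1 or 2 (-0.26 to -0.20). Insig1 at 2 h, at 56.1, 61.0 and 50.4 CPM against 61.5, 65.3 and 68.2 CPM, did not pass the test (-0.22 ± 0.09, adjusted p = 0.252).

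The largest genotype difference among the called genes was that of Abca1 at 4 h. Against control, Abca1 was lower at that time in WT (-0.35 ± 0.07) and stood at 0.02 ± 0.07 in TTP-KO cells (adjusted p = 0.839). The TTP-KO libraries had 71.2, 71.9 and 70.9 CPM and the WT libraries 48.9, 53.2 and 54.6 CPM, a 1.36-fold difference (0.45 ± 0.07, adjusted p = 0.00014, between 7.39e-07 and 0.00252 under the alternatives). In control the levels were 71.3, 73.1 and 66.4 CPM against 60.0, 71.6 and 69.1 CPM (0.07 ± 0.07, adjusted p = 0.767). At 2 h they were 67.8, 71.2 and 63.2 CPM against 63.2, 70.8 and 64.2 CPM (0.03 ± 0.07, adjusted p = 0.909). The test of the difference itself did not pass. The 4 h response of Abca1 was 0.38 ± 0.10 higher in TTP-KO cells (adjusted p = 0.0976, between 0.0424 and 0.235 under the alternatives), and the change from 2 h to 4 h 0.42 ± 0.10 higher (adjusted p = 0.0881, between 0.0213 and 0.264). DESeq2 called both (adjusted p = 0.0456 and 0.0213), as did the fit without WT control replicate 1 (0.0424 and 0.0455), and the fit without a filter called the second (0.0364). Over the 32 genes edgeR called 0 in each of the 3 interactions, with 3 (2 h response), 2 (4 h response) and 4 (change from 2 h to 4 h) at an unadjusted p under 0.05. Over all genes 0.0497%, 0.689% and 0.313% were called.

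Mylip and Fdps were lower in TTP-KO cells at 4 h. Mylip had 89.5, 104 and 105 CPM against 117, 124 and 116 CPM (-0.27 ± 0.06, adjusted p = 0.00486), and in control 75.5, 69.8 and 72.1 CPM against 82.3, 83.9 and 88.6 CPM (-0.23 ± 0.06, adjusted p = 0.0512). Its libraries were separate both times, and at 2 h too, at 104, 109 and 107 CPM against 117, 114 and 113 CPM (-0.11 ± 0.06, adjusted p = 0.446). Fdps had 62.7, 58.8 and 57.4 CPM against 76.3, 69.9 and 70.6 CPM at 4 h (-0.28 ± 0.07, adjusted p = 0.00848). In control it had 61.3, 57.9 and 58.4 CPM against 66.8, 65.6 and 61.7 CPM (-0.13 ± 0.07, adjusted p = 0.45), and at 2 h 67.3, 71.0 and 70.2 CPM against 78.7, 69.1 and 72.9 CPM (-0.08 ± 0.07, adjusted p = 0.643). The 4 h call of Mylip was lost without WT 4 h replicate 2 (-0.23) or TTP-KO 4 h replicate 1 (-0.19), and that of Fdps without WT 4 h replicate 1 (-0.24) or TTP-KO 4 h replicate 3 (-0.25). Npc1 (0.29 ± 0.09, adjusted p = 0.0772) and Soat1 (0.21 ± 0.07, adjusted p = 0.084) at 4 h did not pass the test.

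**Figure D4:**
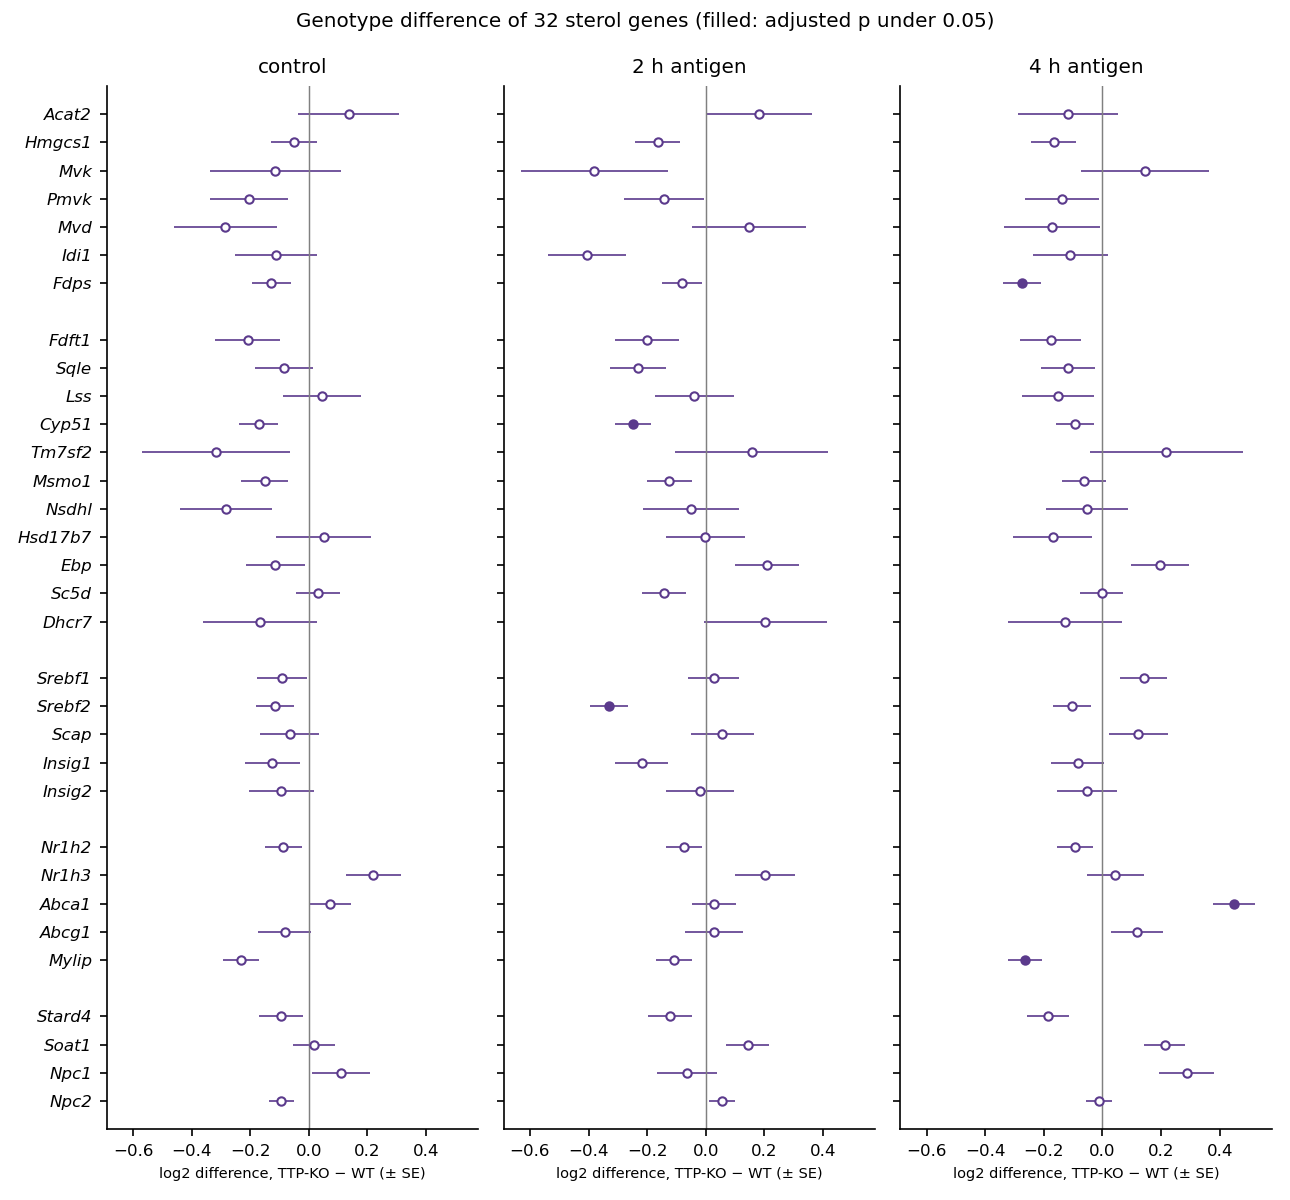
TTP-KO minus WT log2 difference (horizontal axis, ± SE) of the 32 genes in control cells and after 2 h and 4 h of antigen, in the same order as the response plot; filled points passed an adjusted p of 0.05. Most open points lie left of 0, Srebf2 and Cyp51 are filled at 2 h, and Abca1 at 4 h is the only filled point to the right.

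Markers of basophils and of other cells moved with genotype in control, at 2 h and at 4 h. Over all genes 1.65%, 2.79% and 5.22% were called in those comparisons. Of the 10 basophil markers 1 was higher and 2 lower in TTP-KO cells in control, 1 and 1 at 2 h, and 0 and 5 at 4 h, where 9 were below 0. The 4 h interaction called 1 of them, as lower. Their summed level at 4 h was 24950 to 26450 CPM in WT and 23940 to 24390 CPM in TTP-KO cells. Of 11 monocyte and macrophage markers 3 were higher in TTP-KO cells in control, 5 at 2 h and 8 at 4 h, and none was lower. Their summed level was 1835 to 1915 CPM in WT and 2032 to 2095 CPM in TTP-KO control, 1795 to 1938 CPM and 2163 to 2356 CPM at 2 h, and 1823 to 1880 CPM and 2179 to 2337 CPM at 4 h. Neutrophil and precursor markers were higher for 5, 7 and 8 of 11 genes, with 1332 to 1472 CPM against 1914 to 2263 CPM in control and 1015 to 1117 CPM against 1874 to 2133 CPM at 4 h. B cell markers were lower for 5 of 6 genes at each time, at 59.3 to 64.3 CPM against 23.5 to 31.9 CPM in control. Of 4 dendritic cell markers tested, 3 were lower at each time, with 3301 to 3407 CPM over the whole list of 8 genes against 2124 to 2205 CPM in control. Cd74 and the class II genes made up nearly all of that sum, and Flt3, Xcr1, Siglech and Cd209a had at most 8 counts in any library. Of 5 mast cell markers tested, 2 were lower at each time. No marker of the macrophage, neutrophil, B cell or dendritic cell lists was at 0 in a whole group. In bulk samples fewer cells of a type and less RNA per cell cannot be told apart, and the part of these markers in the differences of Abca1, Srebf2, Cyp51, Mylip and Fdps was not tested.

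Genes next to these in sterol and lipid metabolism were read from 5 further lists, whose counts are to be set beside the shares over all genes in WT (17.8% higher and 17.3% lower at 2 h, 19.6% and 18.4% at 4 h). Of the fatty acid enzymes that SREBPs also drive, in WT at 2 h 1 of 14 rose and 4 fell (median 0.04), and at 4 h 1 rose and 5 fell (median -0.20), with no turn of direction for the named genes under any scaling. Fads1, a fatty acid desaturase, had 89.6, 95.5 and 108 CPM in WT control and 45.0, 45.1 and 48.7 CPM at 2 h (-1.08 ± 0.07, adjusted p = 9.93e-13). Every stimulated WT library lay below every control, and TTP-KO cells gave -0.96 ± 0.07. Acss2, which makes acetyl-CoA from acetate, and Fads2, another desaturase, were lower at 2 h by -0.92 ± 0.07 and -0.69 ± 0.07 in WT. Me1, malic enzyme, rose from between 0.81 and 1.65 CPM to between 2.29 and 4.79 CPM (1.59 ± 0.41, adjusted p = 0.00289).

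Of 11 genes of SREBP processing and sterol-regulated degradation, 1 rose and 4 fell in WT at 2 h (median 0.06). Both Golgi proteases that release SREBPs were among the latter: Mbtps1, with 31.0, 31.9 and 35.3 CPM in control and 21.8, 20.2 and 22.4 CPM at 2 h (-0.61 ± 0.10, adjusted p = 2.08e-05), and Mbtps2 (-0.51 ± 0.15, adjusted p = 0.0075), whose libraries overlapped and whose call was lost without WT control replicate 3 (-0.36). In TTP-KO cells they had -0.40 ± 0.10 (adjusted p = 0.0025) and -0.24 ± 0.15 (adjusted p = 0.219). Rnf145, a ligase of the endoplasmic reticulum, had -0.42 ± 0.10 at 2 h (adjusted p = 0.00141), and after 4 h -0.48 ± 0.10 (adjusted p = 0.000217), and Spring1, which activates the protease encoded by Mbtps1, had 0.55 ± 0.20 at 4 h (adjusted p = 0.0276), a call lost with library totals and without WT control replicate 1 or WT 4 h replicate 2 or 3. At 4 h 2 of the 11 were higher and 1 lower (median 0.12).

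Among 23 tested sterol carriers, receptors and oxysterol enzymes 5 rose and 6 fell in WT at 2 h (median -0.05), and 5 rose and 11 fell at 4 h (median -0.20). Ch25h, which makes the oxysterol 25-hydroxycholesterol, an inhibitor of SREBP processing and a ligand of LXR, had 3.01, 1.16 and 3.20 CPM in WT control, 26.7, 20.1 and 21.3 CPM at 2 h, and 6.54, 8.87 and 9.05 CPM at 4 h. The 3 groups did not overlap, with 3.12 ± 0.22 at 2 h (adjusted p = 1.43e-12) and a smaller 1.65 ± 0.23 after 4 h (adjusted p = 1.07e-06). In TTP-KO cells the 4 h libraries had 4.83, 4.28 and 4.11 CPM, lower than in WT (-0.88 ± 0.20, adjusted p = 0.00773), a call lost without WT 4 h replicate 2 or TTP-KO 4 h replicate 3. Osbpl8, an oxysterol-binding lipid carrier, rose (1.35 ± 0.05), and its relative Osbpl5 fell (-1.46 ± 0.08), both at 2 h in WT. Cyp27a1, a mitochondrial sterol hydroxylase, was lower at 4 h (-1.36 ± 0.30, adjusted p = 0.000534).

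Of LXR partners and other LXR targets, 2 of 5 rose and 2 fell in WT at 2 h (median -0.16), and likewise at 4 h (median -0.34). Arl4c, an LXR target that encodes a small GTPase, rose by 1.08 ± 0.04 at 2 h (adjusted p = 4.65e-18), and Lpcat3, which puts polyunsaturated chains into phospholipids, by 0.40 ± 0.10 (adjusted p = 0.0012; not called with library totals). Rxrb, a partner of LXRs, fell by 0.46 on the log2 scale (SE 0.10, adjusted p = 0.00027), and Smpdl3a was lower at 4 h (-0.48 ± 0.06). Between genotypes Arl4c was lower in TTP-KO cells in control, at 2 h and at 4 h (-0.24, -0.37 and -0.33, each ± 0.04), and Lpcat3 at 4 h (-0.36 ± 0.09, adjusted p = 0.0112; lost without WT 4 h replicate 3 or TTP-KO 4 h replicate 1). In the isoprenoid branch that leads to dolichol, ubiquinone and protein prenylation, 2 of 16 (12.5%) rose and 2 fell at 2 h, shares below those over all genes (median -0.10), and 4 rose and 1 fell at 4 h (median 0.17). Rabggta and Rce1, both of protein prenylation, had 0.45 ± 0.12 and 0.41 ± 0.11 at 2 h, neither called with library totals. Dolk and Dhdds, both of dolichol synthesis, had 0.54 ± 0.17 and 0.45 ± 0.12 at 4 h, and Dolk was not called with library totals or without WT control replicate 3 or WT 4 h replicate 2.

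**Figure D5:**
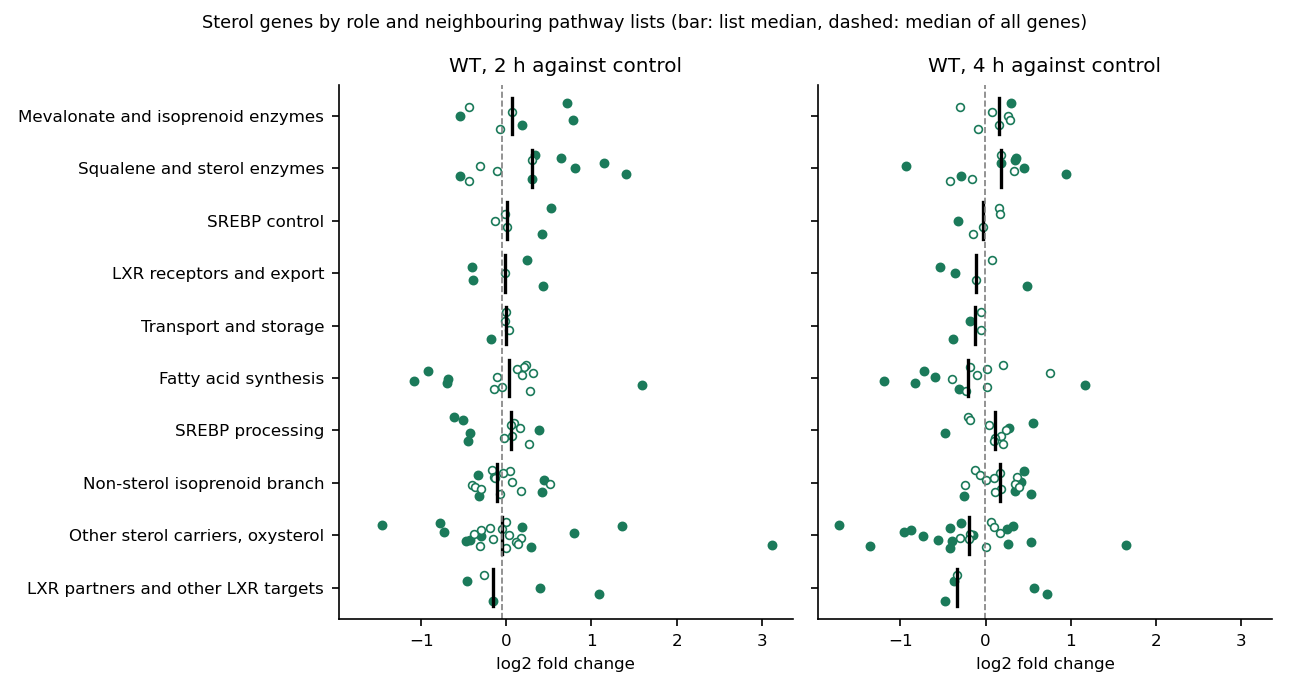
Log2 fold change (horizontal axis) in WT cells at 2 h (left) and 4 h (right) against control for the 32 genes by role and for 5 neighbouring lists; each point is a gene, filled where it passed an adjusted p of 0.05, black bars are list medians and the dashed line the median of all genes tested. The squalene and sterol enzymes have the list median farthest to the right at 2 h, and Ch25h is the point beyond 3 among the sterol carriers.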

How the data were processed

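Bulk RNA-seq of 18 libraries was analysed from the deposited table of estimated counts per gene (expected counts, with no normalization, judged from decimals and unequal sums). Per the submitters' processing notes, cutadapt 3.5, STAR 2.7.10a, RSEM 1.3.1, R 4.4.1, R 4.4.0 and build GRCm39 were used, in roles not stated there; the release of the annotation and whether counting used strand are not given in the sources used here. Columns named as unstimulated were matched to control OVA.

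Counts were rounded to whole numbers, filtered with filterByExpr on the 6 groups, scaled by TMM and fitted in R 4.3.3 with edgeR 4.0.16 (robust quasi-likelihood, 12 residual degrees of freedom, biological coefficient of variation 0.0905). The 12 contrasts were 6 of stimulation, 3 of genotype and 3 interactions, adjusted by Benjamini-Hochberg over 14076 genes, threshold 0.05. SE was taken as the absolute log2 fold change over the root of the F statistic. CPM uses TMM-scaled totals. On simulated counts for TTP-KO against WT in control (14076 genes), 65 of 100 genes changed 1.5-fold and 84 of 100 changed 2-fold were recovered, with 11 others called. Within groups libraries differed beyond counting noise (18 pairs, chi-square per degree of freedom 2.94 to 6.96).

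Members and lists were chosen with earlier results of these data known. Named by rule were the up to 8 called members with the largest change in WT at 2 h and at 4 h, members called between genotypes, the 5 SREBP control genes and up to 4 called genes per further list; other members were named after their values were seen. Alternatives were RLE scaling, library totals, no filter, DESeq2 1.42.0, only the groups compared, a replicate block and leaving out each library; those for the further lists were added after seeing the data.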

Additional observations from a re-analysis of the deposited data

How the results depend on the processing

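Of the 90 calls of member genes over the 12 contrasts, 61 were kept without each single library in turn and 29 were lost without at least 1. RLE scaling lost 2, only the groups compared 3, no filter 7, DESeq2 11 and library totals 27, and library totals reversed 8. No other setting reversed a called member value. The labels do not say whether replicate numbers pair the libraries. Over 45 same-numbered pairs the correlations of deviations were -0.08 to 0.04. The fit with the replicate block called 18, 14, 16, 15, 8 and 16 members in the stimulation contrasts (WT 2 h, 4 h and 4 h against 2 h, then TTP-KO), 0, 2 and 4 between genotypes and 0 in each interaction, and lost 1 call.

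Among values called with TMM or with library totals, those turned by library totals were, in WT at 2 h, Fdps -0.14, Sc5d -0.021, Srebf1 -0.32, Nr1h2 -0.086 and Npc1 -0.29 (4 h against 2 h: Fdps 0.18, Nr1h2 0.03). In TTP-KO at 2 h they were Fdps -0.10, Sc5d -0.20, Insig2 -0.27, Srebf1 -0.21, Srebf2 -0.13, Nr1h2 -0.084, Soat1 -0.23, Dhdds -0.30, Rce1 -0.064 and Lpcat3 -0.03 (4 h against 2 h: Nr1h2 0.012). Values called in neither fit turned as well, among them Pmvk (-0.26) and Lss (-0.03) in WT at 2 h and Pmvk (-0.21), Lss (-0.12), Tm7sf2 (-0.17) and Nsdhl (-0.21) in TTP-KO at 2 h. The cause was not tested.

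In control 1 member was called between genotypes with RLE and 1 with DESeq2; at 2 h library totals gave 1. DESeq2 called 1 in the 4 h interaction and 1 in the 2 h to 4 h interaction, where no filter also gave 1. Without a single library, members called ranged from 15 to 18 (WT 2 h), 11 to 15 (WT 4 h), 11 to 16 (WT 4 h against 2 h), 10 to 16, 8 to 11 and 10 to 17 (the same in TTP-KO), 0 to 1, 1 to 2 and 2 to 3 (genotype in control, at 2 h and 4 h), 0 to 0, 0 to 1 and 0 to 1 (interactions).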
